A study of Mus musculus with 76 samples.

Results

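Macrophages of the mouse atrioventricular (AV) node were ordered by 4 interferon-stimulated transcripts, and the cells at the top of that order were compared with the cells at the bottom. The AV node is the small tissue through which electrical impulses pass from the atria to the ventricles. The macrophages came from wild-type (WT) C57BL/6J mice, for which the labels name no treatment. The triangle of Koch was dissected and digested with enzymes, and flow sorting kept lineage-low cells with high CD11b, F4/80 and CD45 whose Ly6C was not high. A Fluidigm C1 chip held each cell, and its whole-transcript cDNA was sequenced as 1 library per cell. There is 1 group and no treated arm, and neither the animal nor the chip or batch of a cell is named.

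The score of a cell was the sum of log2(CPM + 1) over Rtp4, Ifi204, Oas1a and Oasl2, where CPM is counts per 1000000 counted reads. The members were thus chosen by the measured values of these 4 genes. The 76 libraries were counted as 75 cells, because transcriptomes 13 and 19 were nearly identical (Pearson r = 0.978 on the log2 scale, where none of the other 2849 pairs exceeded 0.421) and were averaged. The 19 cells with the highest score and the 19 with the lowest were compared, and 37 cells lay between them, among them the averaged pair. The comparison covered 8347 other genes that were above 0 in at least 8 cells. All cells are 1 sample, so cells are not replicates and no test, standard error or p-value was made. A gene is called higher or lower here when its mean log2(CPM + 1) differed by at least 2 between the sets, which is a rule of size and not a test.

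Type I interferons bind the receptor subunits encoded by Ifnar1 and Ifnar2, whose kinases Jak1 and Tyk2 phosphorylate STAT proteins, among them Stat2. With Irf9 these form a complex that binds the interferon-stimulated response element (ISRE) of interferon-stimulated genes. The products of those genes degrade viral RNA, sense it, modify proteins with Isg15 or restrict virus release, and Usp18 limits the signal at the receptor. Macrophages are known to keep a low level of many of these transcripts without infection.

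Promoters of genes higher in the high-score cells are shown first, because a core of the ISRE could be read directly in them. The motif searched was GAAANNGAAA on either strand, which reads TTTCNNTTTC on the other, in RefSeq promoter windows from 250 bases before to 50 bases after an annotated start (GRCm38.p6). Capitals mark the motif, and each stretch is given 5′ to 3′ on the strand of the gene, with at most 20 bases on either side and no base at or beyond the start.
Oas1a: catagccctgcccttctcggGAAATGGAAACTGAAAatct
Bst2: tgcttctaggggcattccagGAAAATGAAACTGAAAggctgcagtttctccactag
Ddx60: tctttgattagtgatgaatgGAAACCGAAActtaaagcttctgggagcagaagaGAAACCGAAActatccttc
Ifit3: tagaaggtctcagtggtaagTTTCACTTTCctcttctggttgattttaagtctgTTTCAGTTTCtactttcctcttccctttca
Stat2: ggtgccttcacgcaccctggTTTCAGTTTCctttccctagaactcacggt
Lgals9: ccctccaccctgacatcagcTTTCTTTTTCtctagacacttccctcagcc

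The Oas1a stretch lies at chr5:120907526-120907565 on the minus strand, that of Bst2 at chr8:71537567-71537622 on the minus strand, and that of Ddx60 at chr8:61928014-61928086 on the plus strand. The stretch of Ifit3 lies at chr19:34583353-34583436 on the plus strand, that of Stat2 at chr10:128270256-128270305 on the plus strand, and that of Lgals9 at chr11:78984950-78984999 on the minus strand. In Oas1a and Bst2, 2 matches overlap and begin 6 bases apart. In Ddx60 and in Ifit3 the first bases of 2 matches lie 34 bases apart, at -53 and -19 from the start in Ddx60 and at -156 and -122 in Ifit3. The core was found in 1079 of all 27025 genes with a promoter sequence (3.99%) and in 232 of 5646 such genes compared (4.11%). Among the interferon genes that were higher in the high-score cells it was found in 14 of 24 with a sequence (58.3%), and among the other interferon genes listed in 14 of 60 (23.3%). A gene was counted when any of its windows held a match. Near-identical genes were counted separately: Trim30a and Trim30d share 1 stretch, and Oas1g has that of Oas1a. Lgals3bp and Rnf213 were among the higher interferon genes without the core. Ifit3 and Oas1g, counted in the 58.3%, passed the filter of at least 8 cells only through the high cells. That share is therefore not free of the choice of cells. Higher genes outside the interferon lists held it in 6 of 135 cases (4.44%), close to the share over all genes. Genes lower in the high-score cells held it in 7 of 73 (9.59%). Of the score genes Oas1a had the core, Oasl2 had no match in its window, and Rtp4 and Ifi204 were not analysed for it. The authors' reads were mapped to another build, so these sequences stand beside the expression values and were not measured in these cells.

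The score itself separated the sets by construction. It ran from 0 to 35.88 with a median of 9.11. The lowest score in the high set was 18.07, and the next cell below it had 17.63. The highest score in the low set was 4.69, and the next cell above it had 4.71. Rtp4, which encodes a chaperone of receptor transport induced by interferon, ranged from 0 to 2010 CPM with a median of 397.1 in the high cells, and from 0 to 2.6 CPM with a median of 0.3 in the low cells. Ifi204, a DNA sensor of the p200 family, had medians of 133.6 and 0.2 CPM, with maxima of 1142 and 24.8 CPM. Oas1a, a synthase of the 2′-5′ oligoadenylates that activate RNase L, had medians of 58.1 and 0 CPM, with maxima of 1275 and 1.2 CPM. Oasl2, a synthase-like relative, had medians of 22.3 and 0 CPM, with maxima of 3472 and 0.8 CPM. These differences are fixed by the choice of the cells and describe them only. In the low cells Rtp4 was at 0 in 6 and at an estimated 1 or 2 reads in 13.

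The 4 score genes were seldom all present in a cell. At 10 CPM or more, 3 of the high cells held 2 of the genes, 13 held 3 and 3 held all 4. Of the low cells 16 held none and 3 held 1. Of the cells between, 1 held none, 30 held 1 and 6 held 2. Over the 75 cells, which share their libraries and depths between genes, pairwise Spearman correlations ran from 0.122 to 0.409, the latter between Oas1a and Oasl2. When cells were ranked by the other 3 genes, so that the gene described had not chosen them, Rtp4 averaged 4.50 higher on the log2 scale in the upper 19 cells and was at 10 CPM in 15 of them against 4. The difference was 4.40 for Ifi204 (17 cells against 7), 2.76 for Oas1a (10 against 5) and 3.16 for Oasl2 (9 against 2). These rankings kept 17 to 19 of the 19 high cells and 14 to 17 of the 19 low cells. The 4 genes were also set with earlier results of these data known. Their agreement with each other is thus a description and not independent evidence.

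Depth and detection differed little between the sets. Estimated reads ranged from 269282 to 5860761 with a median of 2190958 in the high cells, and from 385623 to 6285369 with a median of 2604919 in the low cells. Genes above 0 numbered 2417 to 4382 (median 3129) in the high cells and 2759 to 4147 (median 3314) in the low cells. The Spearman correlation of the score with genes detected was -0.0228 over the 75 cells, and with estimated reads -0.0880. All 14 macrophage markers had values, and their summed level had a median of 34819 CPM in the high and 34548 CPM in the low cells. Their mean log2(CPM + 1) per cell was 8.13 ± 0.976 in the high and 7.16 ± 1.48 in the low cells (SD, n = 19 cells each). Of the 14, Aif1 and Cd68 (2 genes) were higher, 11 had a difference above 0, and the median difference was 1.09. Both sets thus carried the markers of the labelled cell type, and the part of their difference in the results was not tested. Of 11 markers of plasmacytoid dendritic cells, a cell type known for making interferon, 3 had values, and Siglech was at 10 CPM in 1 high and 3 low cells.

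Of the 8347 genes, 226 were higher (2.71%) and 89 lower (1.07%) in the high-score cells. The median difference over all genes was 0.04, and its 5th to 95th percentiles ran from -1.34 to 1.62. When each cell was centred on the median of its widely detected genes, 124 genes were higher and 197 lower, and the median difference over all genes was -0.29. The larger number of higher genes therefore holds for CPM as deposited and not after centring, and the counts below use CPM as deposited.

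Antiviral effector genes were the list with the largest share of higher members, apart from the platelet list, of which 1 gene was compared. Of 70 listed, 54 had values and 50 were compared. Of these 23 were higher (46.0%, against 2.71% of all genes), 0 were lower and 46 had a difference above 0, with a median difference of 1.65. The 5 interferon lists together held 152 genes, of which 121 had values and 111 were compared. Of those 32 were higher (28.8%) and 1 lower (0.901%, against 1.07%), with a median difference of 1.10. After centring of the cells 19 of the 111 were higher. The filter on detection counts the high cells too, and 3 of the 32, Ifit3, Oas1g and Usp18, passed it only through them. With genes required to be above 0 in at least 8 of the 37 cells between, a filter that uses neither set and was added after the values were seen, 20 of 35 effectors (57.1%) and 28 of 84 interferon genes (33.3%) were higher, against 216 of 5523 genes in all (3.91%). Lower were 1 of the 84 and 87 in all (1.58%).

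**Figure D1:**
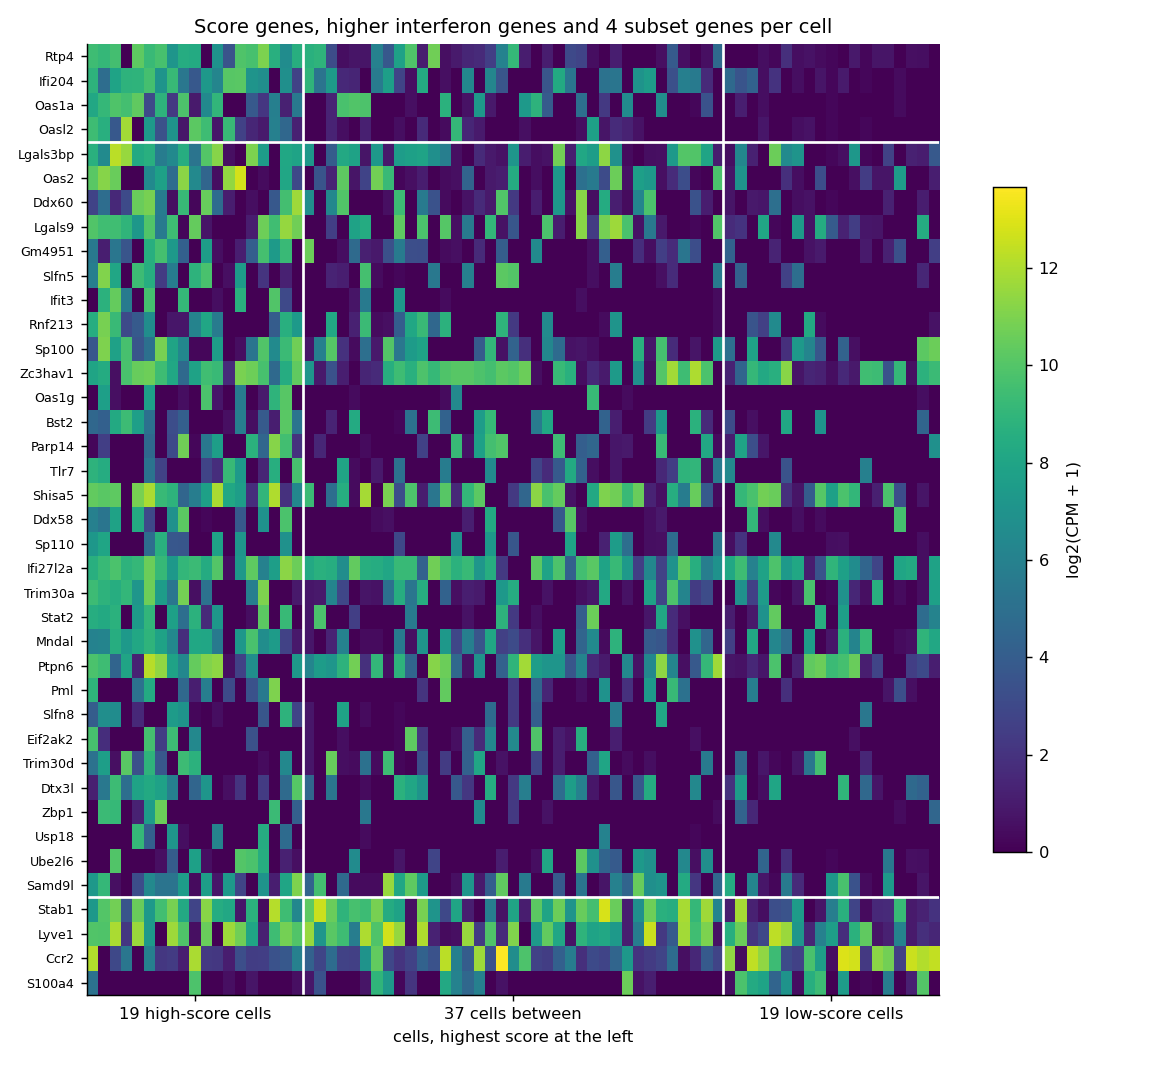
log2(CPM + 1) of each cell (columns, ordered by the score from the highest at the left) for the 4 score genes (top rows), 31 of the 32 interferon genes higher by at least 2, and 4 genes of macrophage subsets (bottom rows). White lines part the 19 high, 37 middle and 19 low cells. Most interferon genes are bright in some of the high cells and dark in others, while Ifi27l2a is at 10 CPM in 18 of 19 high and 15 of 19 low cells, and the rows are not independent of the comparison, since their difference put them there.

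The effectors Oas2, Ddx60 and Ifit3 were abundant in some of the high cells and near 0 in nearly all low cells. Oas2, another oligoadenylate synthase, ranged from 0 to 7157 CPM with a median of 85.0 in the high cells and from 0 to 182.0 CPM with a median of 0.5 in the low cells. Its mean log2(CPM + 1) was 5.76 ± 4.68 against 1.40 ± 2.27 (SD, n = 19 cells each), a difference of 4.36, and it was at 10 CPM in 12 cells against 2. The sets overlapped, because some high cells held no Oas2. Ddx60, a helicase of the antiviral RNA sensing pathway, ranged from 0 to 3189 CPM with a median of 12.4 in the high cells and from 0 to 30.5 CPM with a median of 0 in the low cells. It was at 10 CPM in 10 high cells (52.6%, exact 95% Clopper-Pearson interval 28.9 to 75.6%) and in 1 low cell (5.26%, 0.133 to 26.0%). These intervals cover the sampling of cells only. Ifit3, which encodes a protein with tetratricopeptide repeats that joins complexes on viral RNA, was listed at 0 in all 19 low cells. In the high cells it ranged from 0 to 1395 CPM with a median of 0, and 7 of 19 reached 10 CPM (36.8%, 16.3 to 61.6%). Only 2 of the 37 cells between did so. Ifit3 was above 0 in 6 cells outside the high set, under the minimum of 8, and entered the comparison only through the cells where it is high, so its contrast supports nothing.

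Other effectors differed in the same direction, and some of them were also present in several low cells. Lgals3bp, a secreted galectin ligand, had the largest difference of the antiviral list, 4.68. Its medians were 277.8 CPM in the high and 1.1 CPM in the low cells, with maxima of 4863 and 1570 CPM. It was at 10 CPM in 16 cells against 6. Lgals9, galectin 9, had medians of 674.1 and 0.8 CPM and maxima of 2867 and 342.2 CPM, and was at 10 CPM in 13 cells against 5. Zc3hav1, the zinc finger antiviral protein, had medians of 620.3 and 20.0 CPM, and was at 10 CPM in 17 cells against 10. For each of these 3 the values of both sets overlapped. The tether of budding virions Bst2 differed by 2.66 (11 cells against 3), the giant ubiquitin ligase Rnf213 by 3.25 (11 against 3), Sp100 of the nuclear bodies by 3.10 (15 against 8) and its partner Pml by 2.36 (8 against 1). The double-stranded RNA kinase Eif2ak2 differed by 2.22 and was at 10 CPM in 4 high and 0 low cells. The Schlafen genes Slfn5 and Slfn8 differed by 3.56 and 2.32.

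Not every textbook effector was among them. The GTPase gene Mx1 differed by 0.48 and was at 10 CPM in 2 cells of each set. Whether its allele is intact in this strain was not examined, so its low level is not read further. The RNA editing enzyme Adar differed by -0.24, and the exonuclease Isg20 reached 10 CPM in no cell of either set. The membrane proteins Ifitm2 and Ifitm3, which hinder virus entry, each differed by 1.42. Ifitm3 was at 10 CPM in all 19 cells of each set, so the transcript was common to high and low cells. Ifitm6 had the most negative difference of the list, at -1.82. Members of near-identical families cannot be separated with certainty in these counts. This touches Oas1a with Oas1g (2.75), Ifi204 with Mndal (2.38) and other p200 genes, Trim30a with Trim30d (2.44 and 2.17), and the Schlafen genes.

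The signalling genes of the pathway did not differ as 1 block. Of 23 receptor, kinase, STAT and IRF genes compared, 3 were higher (13.0%, against 2.71% of all genes) and 1 was lower (4.35%, against 1.07%). The median difference was -0.07. Stat2 had means of 4.86 ± 4.17 and 2.45 ± 3.64 in log2(CPM + 1) (SD, n = 19 cells each), medians of 151.6 and 0 CPM, a difference of 2.41, and 11 cells against 6 at 10 CPM. Stat2 was high in single low cells too, with maxima of 1198 CPM in the high and 1327 CPM in the low set. The phosphatase Ptpn6 differed by 2.36. Jak1 was the lower gene, at -2.50, with 12 high and all 19 low cells at 10 CPM. The receptor genes Ifnar1 and Ifnar2 differed by -0.08 and -0.49, Tyk2 by -1.66, Irf9 by 0.89 and the interferon-induced factor Irf7 by 1.49.

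Sensors, protein modifiers and GTPases had 3, 2 and 1 higher members, where 2.71% of all genes were higher and 1.07% lower. Of 20 p200 genes and nucleic acid sensors compared, 3 were higher (15.0%) and 0 lower, with a median difference of 0.92. Tlr7, the endosomal receptor for single-stranded RNA, differed by 2.64 (7 cells against 3), Ddx58, which encodes the RNA sensor RIG-I, by 2.55 (9 against 2), and Mndal by 2.38 (15 against 9). Of 6 genes of Isg15 conjugation compared 2 were higher (33.3%) and 0 lower. Usp18, which removes Isg15 from proteins, was listed at 0 in all 19 low cells and reached 10 CPM in 6 high cells, with a maximum of 550.5 CPM. It was above 0 in 3 cells outside the high set, so it too entered only through the high cells. The conjugating enzyme Ube2l6 differed by 2.10. Of 12 GTPases of the guanylate-binding and immunity-related families 1 was higher (8.33%) and 0 were lower. It was Gm4951, which differed by 3.66 and was at 10 CPM in 12 high cells against 1. Gbp2, a guanylate-binding protein, differed by 1.28.

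**Figure D2:**
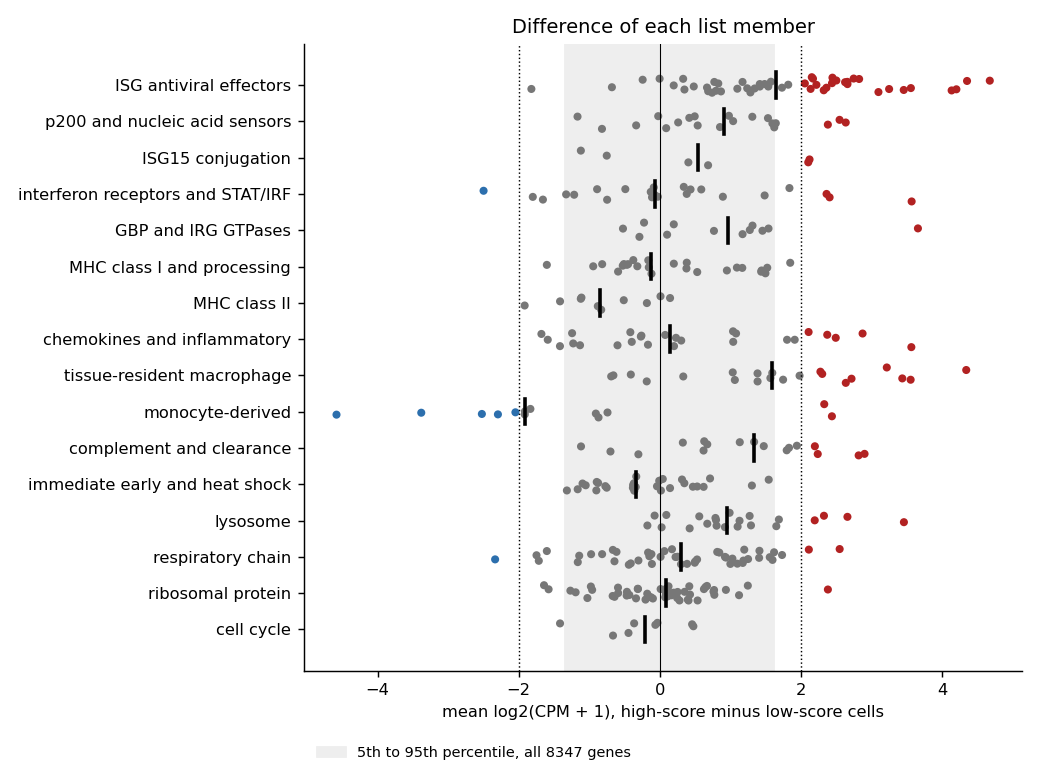
Difference in mean log2(CPM + 1) between 19 high-score and 19 low-score cells for each list member (points) on each list drawn (rows; markers of cell types are not drawn), with a bar at the list's median. Red points are at least 2 and blue points at most -2 (dotted lines), and the grey band spans the 5th to 95th percentile of all 8347 genes. The antiviral effectors (median 1.65) and the tissue-resident genes (median 1.59) have the highest medians and the monocyte-derived genes (median -1.91) the lowest among the lists drawn.

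Antigen presentation by MHC class I, which interferon is known to raise, showed no called gene. Of 25 genes compared 0 were higher and 0 lower, against 2.71% and 1.07% of all genes, with a median of -0.12. The proteasome subunit Psmb10 came nearest to the rule on the higher side, at 1.85, and H2-K1, a class I heavy chain, had the most negative value, at -1.60. Tap1, a peptide transporter, differed by 1.44 and B2m, the class I light chain, by 0.53. MHC class II had 0 of 10 genes called and a median of -0.85, and H2-Aa was at 100 CPM in 15 cells of each set. In lists this short 0 calls lie near the shares over all genes, so they are no result about either class.

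The antiviral genes that the score had not used were also examined cell by cell. The mean log2(CPM + 1) over the 50 effectors ranged from 1.80 to 5.80 with a median of 3.46 in the high cells, and from 1.00 to 2.36 with a median of 1.78 in the low cells. The cells between had a median of 2.36. In 18 of the 19 high cells the mean lay above that of every low cell. The 50 effectors include Ifit3 and Oas1g, which entered the comparison only through the high cells. Oas1g also cannot be separated with certainty from the score gene Oas1a. The mean without these genes was not examined, so this gap is not free of the choice of cells. The number of effectors at 10 CPM or more was 8 to 36 (median 21) in the high cells and 7 to 15 (median 10) in the low cells. Over the 75 cells the mean followed the score with a Spearman correlation of 0.703, where both come from the same libraries. Within the 37 cells between, the correlation was 0.08, so the order of those cells did not follow the score. Inside the high set, the 7 cells with a score of 28.98 or more, a split chosen after the values were seen, held a median of 24 effectors at 10 CPM and the other 12 a median of 18. Ifit3 was at 10 CPM in 4 of those 7 and 3 of those 12.

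**Figure D3:**
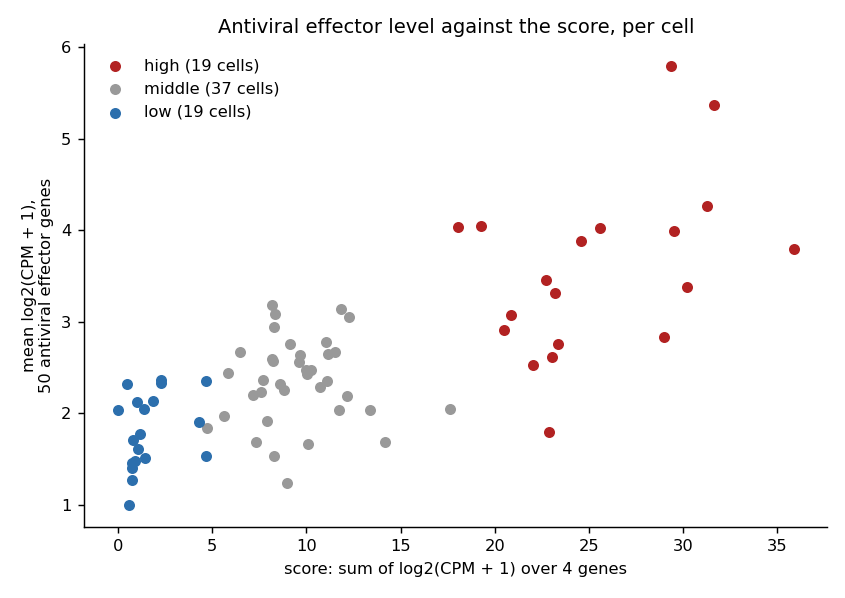
Mean log2(CPM + 1) over 50 antiviral effector genes (y axis) against the score, the sum of log2(CPM + 1) over 4 genes (x axis), 1 point per cell for the 19 high (red), 37 middle (grey) and 19 low (blue) cells. High cells run from 1.80 to 5.80 and low cells from 1.00 to 2.36, while the middle cells have a correlation of 0.08.

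Chemokine genes were higher in part. Of 26 chemokine and inflammatory genes compared 5 were higher (19.2%, against 2.71% of all genes) and 0 lower, with a median of 0.14. Ccl12, a monocyte attractant, ranged from 0 to 4058 CPM with a median of 73.0 in the high cells and from 0 to 472.0 CPM with a median of 0.3 in the low cells, a difference of 3.57. Its relatives Ccl7 and Ccl2 differed by 2.49 and 2.37, and the scavenger chemokine Cxcl16 by 2.87. Il15, a cytokine for lymphocytes, differed by 2.11 and was at 10 CPM in 6 high and 0 low cells. Tnf, by contrast, differed by 0.30, and Tnfaip3, a brake on NF-kB, by -1.68.

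Macrophage subset genes differed between the outer sets as well. Of 21 tissue-resident genes 8 were higher (38.1%, against 2.71% of all genes) and 0 lower, with a median of 1.59. Of 13 monocyte-derived genes 5 were lower (38.5%, against 1.07% of all genes) and 2 higher, with a median of -1.91. Without the low cell of transcriptome 39 the lower count was 8. Stab1, a scavenger receptor of resident macrophages, ranged from 0.3 to 4607 CPM with a median of 358.0 in the high cells and from 0 to 3669 CPM with a median of 2.1 in the low cells, a difference of 4.34. The Fc receptor Fcgrt differed by 3.56, the ubiquitin ligase Wwp1 by 3.44, the adhesion protein Ninj1 by 3.22, the folate receptor Folr2 by 2.72 and the secreted ribonuclease Rnase4 by 2.64. The hyaluronan receptor Lyve1 had medians of 955.1 and 64.0 CPM and was also higher, and the phosphatidylserine receptor Timd4 differed by 2.28. Both sets overlapped for each of them.

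Ccr2, the chemokine receptor that brings monocytes to tissue, ran the other way. It ranged from 0 to 4404 CPM with a median of 4.8 in the high cells and from 0.3 to 7943 CPM with a median of 1750 in the low cells, a difference of -4.58. At 100 CPM it was present in 2 of 19 high cells (exact interval 1.30 to 33.1%), 8 of 37 cells between (21.6%, 9.83 to 38.2%) and 13 of 19 low cells (68.4%, 43.4 to 87.4%). The calcium-binding proteins S100a4 and S100a6 differed by -3.38 and -2.29, fibronectin Fn1 by -2.52 and the nuclear receptor Nr4a1 by -2.05. The higher members of the same list were Ly6e (2.44), itself a known interferon-stimulated gene, and the fractalkine receptor Cx3cr1 (2.33). Within the 37 cells between, the Spearman correlation with the score was 0.258 for Ccr2, 0.374 for S100a4 and 0.310 for S100a6, the opposite sign to the difference between the outer sets. It was -0.021 for Stab1, 0.153 for Lyve1 and 0.193 for Folr2. The high and the low cells differed in subset transcripts as well as in interferon genes, and the part of one in the other was not tested. Values without the cells with Ccr2 are given beside them.

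**Figure D4:**
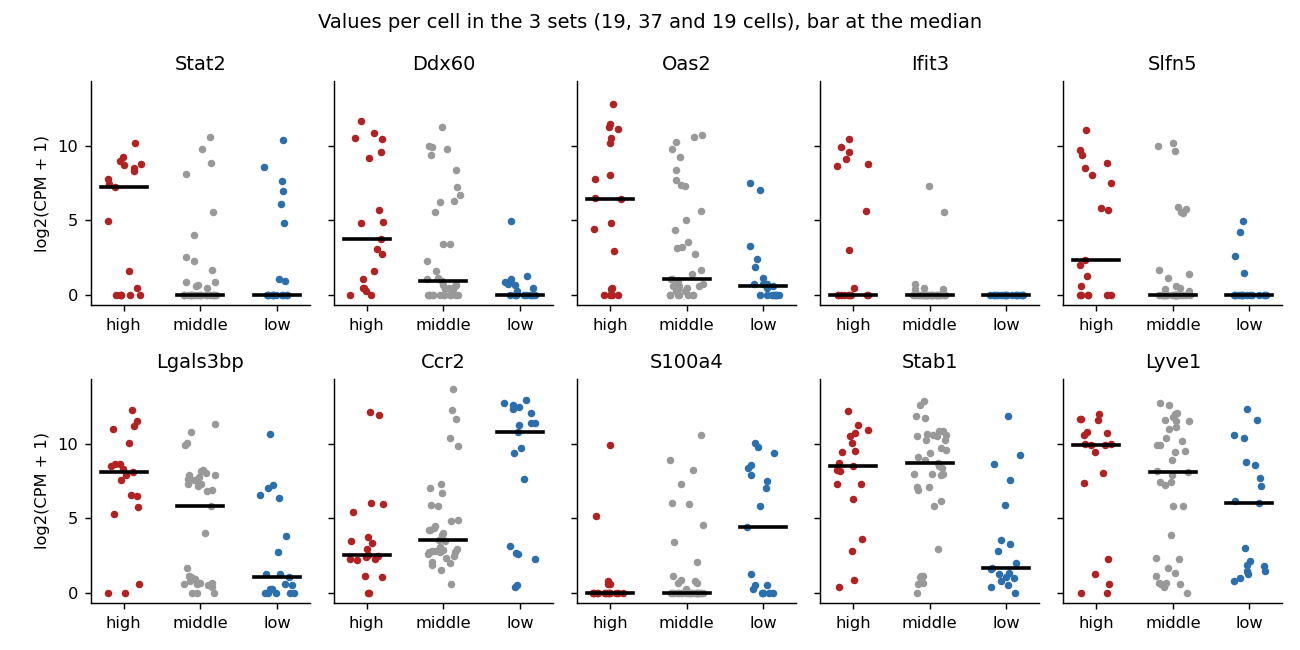
log2(CPM + 1) of each cell (points) for 6 interferon genes and 4 subset genes in the 19 high (red), 37 middle (grey) and 19 low (blue) cells, with a black bar at the median of each set. Ddx60 and Ifit3 are near 0 in the low cells, and Ccr2 has its highest median there, at 1750 CPM.

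The 23 cells with Ccr2 at 100 CPM or more were left out, a choice made after the values were seen, and the other 52 were ranked again and compared as 13 against 13. All 13 upper cells had been in the high set, but only 6 of the 13 lower cells in the low set, so the lower cells were in large part other cells. Of 6874 genes then compared, 394 were higher (5.73%) and 139 lower (2.02%). Smaller sets passed the size rule more often in all cells too, with 562 genes higher for 12 against 12 cells, so the members' counts are to be read against these shares. Of 103 genes of the 5 interferon lists 34 were higher, and 23 of them were among the 32 called in all cells. Over all genes, 112 of the 226 called higher in all cells were called again. The 2 comparisons share cells, so part of such overlap is fixed by the choice of cells. The antiviral effectors had a median difference of 1.71, with 20 of 48 higher. Ddx60 differed by 3.70, Stat2 by 3.41 and Slfn5 by 3.33. Pml (0.29), Zc3hav1 (1.17) and Bst2 (1.60) no longer reached the rule, and Tlr7 differed by -0.01.

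Without those cells fewer subset genes passed the rule. Of the tissue-resident genes 1 of 21 was higher (4.76%, against 5.73% of all genes), with a list median of 0.15. Of the monocyte-derived genes 1 of 12 was lower (8.33%, against 2.02% of all genes) and 1 higher (8.33%), with a median of -0.08. Stab1 differed by 0.25, Lyve1 by 0.03, Folr2 by 0.15 and Timd4 by 0.45, but Wwp1 still by 2.34, Ninj1 by 1.62 and Fcgrt by 1.47. Nr4a1 differed by -2.43, S100a4 by -1.34 and Cx3cr1 by 1.81. A difference of Ccr2 is not given as a result there, since the choice of cells limits it. That choice can also limit subset genes that vary with Ccr2, and its part in their smaller differences was not tested. Of 23 chemokine and inflammatory genes 2 were higher (8.70%, against 5.73% of all genes) and 1 lower, with a median of -0.18. Ccl12 differed by 3.22 and Cxcl16 by 2.16, whereas Ccl2 (1.91), Il15 (1.28) and Ccl7 (-0.18) did not reach the rule. MHC class II then had 2 of 9 genes higher and a median of 1.10, with the sign opposite to that in all cells.

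**Figure D5:**
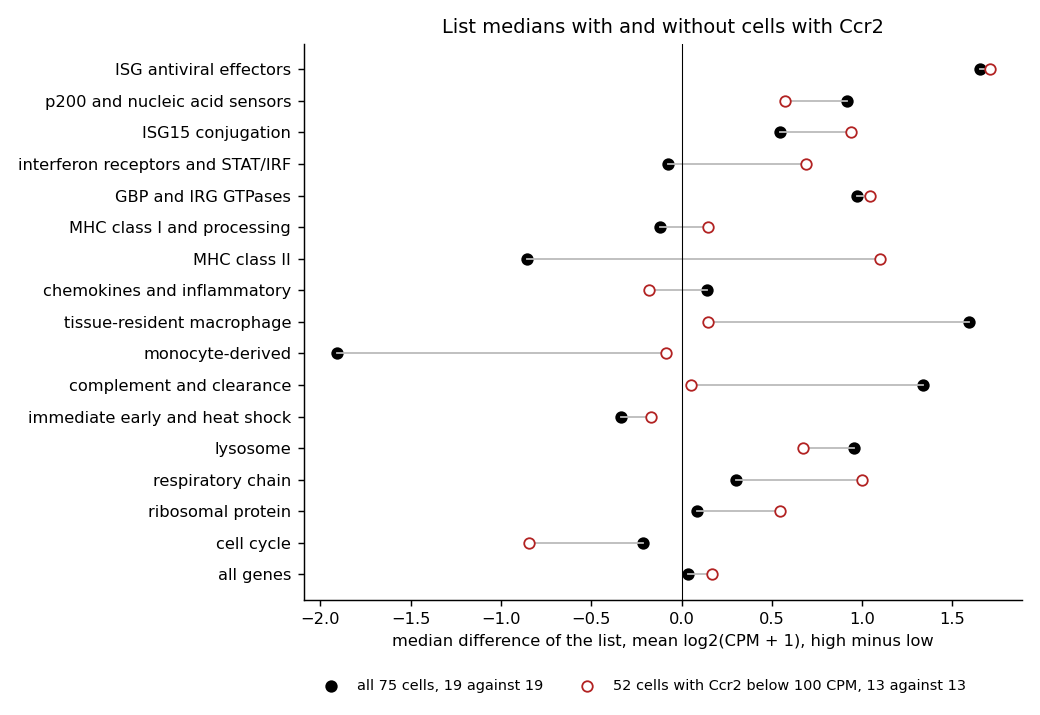
Median difference in mean log2(CPM + 1) of each list (rows), high minus low, over all 75 cells as 19 against 19 (black) and over the 52 cells with Ccr2 below 100 CPM as 13 against 13 (red outline). The medians are 1.65 and 1.71 for the antiviral effectors, 1.59 and 0.15 for the tissue-resident genes, and -1.91 and -0.08 for the monocyte-derived genes, and only 6 of the 13 lower cells were among the 19 low cells.

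Complement and lysosome genes were higher in some members. Of 17 complement and clearance genes 4 were higher (23.5%, against 2.71% of all genes) and 0 lower. Among the higher were C4b by 2.90, the anaphylatoxin receptor C5ar1 by 2.24 and C1qb by 2.20. C1qb, a chain of the complement starter C1q, ranged from 3623 to 23707 CPM in the high cells and from 6.3 to 20382 CPM in the low cells, with medians of 10177 and 5288 CPM. Of 22 lysosome genes 4 were higher (18.2%) and 0 lower: the protease Lgmn by 3.46, the membrane proteins Cd63 by 2.66 and Cd68 by 2.33, and progranulin Grn by 2.20. Lgmn was at 10 CPM in all 19 high and in 13 low cells. Without the cells with Ccr2, 1 of 17 complement genes (5.88%) and 5 of 22 lysosome genes (22.7%) were higher, against 5.73% of all genes. Their medians were 0.05 and 0.67.

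Several programmes had few or no genes called. Immediate early and heat shock genes had 0 of 28 called, with a median of -0.34. Of 51 ribosomal protein genes 1 was higher, Rps20 at 2.38, and of 47 respiratory chain genes 2 were higher and 1 was lower, with medians of 0.09 and 0.30. Of 8 cell cycle genes 0 were called. Those shares lie near or below the 2.71% of all genes except for the respiratory chain, at 4.26%. Without the cells with Ccr2, 6 of 47 respiratory chain genes were higher (12.8%, against 5.73% of all genes), with a median of 1.00. Of markers of other cell types, both monocyte genes with values, Ccr2 and Nr4a1, were lower, and Cd2, listed for T or NK cells, differed by -1.96, with 1 high and 6 low cells at 10 CPM. Pf4, listed for platelets, was higher by 3.04, with medians of 2338 and 772.7 CPM, and differed by 0.59 without the cells with Ccr2. Pf4 was the only 1 of 5 platelet markers with values. The part of these markers in the interferon result was not tested.

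Outside the lists the largest positive differences included those of the lysosomal mannosidase Man2b1 (4.69), the leukotriene C4 synthase Ltc4s (4.37) and the receptor of transforming growth factor beta Tgfbr2 (4.10). The membrane-spanning genes Ms4a6d, Ms4a7 and Ms4a6c were at 3.90, 3.74 and 3.59. Without the cells with Ccr2, Ltc4s differed by 3.24, but Man2b1 by 0.56 and Tgfbr2 by 1.47. The largest negative difference was that of Mysm1, a histone H2A deubiquitinase. It ranged from 0 to 77.2 CPM with a median of 0 in the high cells and from 0 to 3358 CPM with a median of 201.1 in the low cells, a difference of -4.98. It was at 10 CPM in 4 high and 14 low cells, and differed by -3.62 without the cells with Ccr2. Krcc1 (-3.79), the kinase Pak2 (-3.63), the lectin Clec4b1 (-3.61) and the Rac regulator Arhgap15 (-3.39) came next, and without the cells with Ccr2 they differed by -3.64, -2.42, -0.05 and -1.23.

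The genes whose level followed the score most closely over the 75 cells were in large part interferon genes. By Spearman correlation the first 10 included Rps20 (0.478), Ifit3 (0.450), Rnf213 (0.443), Slfn8 (0.420), Ddx60 (0.414), Ifi27l2a (0.409), Slfn5 (0.408), Lgals3bp (0.401) and Ltc4s (0.400). Rps20, a ribosomal protein gene with processed copies in the genome, had medians of 116.3 CPM in the high and 16.0 CPM in the low cells. Ifit3 entered the comparison only through the high cells, so its place in this order supports nothing. Within the 37 cells between, the correlation was 0.392 for Rnf213, 0.313 for Rps20 and 0.159 for Ifit3 but 0.029 for Ddx60 and -0.054 for Lgals3bp. These correlations share libraries and depth, and partial values given genes detected per cell lay between 0.400 and 0.478.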

How the data were processed

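Single AV node macrophages, 76 libraries of 1 group, were analysed from 1 table of CPM (counts per 1000000) that the authors deposited, rounded to 1 decimal, for 9235 genes. STAR 2.3.0 and HTSeq 0.6.0 were used with mm9, per the submitters' processing notes, and the gene annotation was not given in the sources used here. Per the labels' protocols, cDNA was made with SMARTer Ultra Low and libraries with Nextera XT, so amplified copies of a molecule are counted separately and antisense or overlapping genes cannot be told apart.

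The values were not counts, so no count model was fitted. Reads per library were estimated from the CPM step of 1 read (259559 to 6285369, median 2124443). Not every library passed a stricter check for whole reads, so depths and read numbers of single genes are estimates. In each library 2324 to 4382 genes were above 0. Symbols were matched to RefSeq: 8175 current, 852 older and 208 without a match. Differences are of mean log2(CPM + 1) with a pseudocount of 1, which understates those of low genes. A difference also depends on how many cells lie near 0, and is not a fold of the mean CPM. Jak1 differed by -2.50 with mean CPM of 452.1 in the high and 498.9 in the low cells. C5ar1 differed by 2.24 with 1549 and 1260 CPM, whereas Ddx60 differed by 4.20 with 497.4 and 1.93 CPM. No cell was left out and doublets were not called.

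The members, the gene lists and the tests were chosen with earlier results of these data known, so no list is independent evidence. Named genes were the score genes, per list those differing by at least 2 or otherwise the 4 largest, the 15 largest positive and 15 largest negative differences among genes above 0 in at least 20 cells, and the 10 largest Spearman correlations with the score; a selection is printed, some of these genes are not reported here, and list members named besides these were chosen after their values were seen. Alternatives changed the pseudocount, filters, depth, score genes, number of cells, size rule and centring, and left out each of 38 cells. Scripts were tested on simulated data. Python 3.11.15, numpy 2.4.6, pandas 2.3.3 and scipy 1.17.1 were used.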

Additional observations from a re-analysis of the deposited data

How the results depend on the processing

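The 5 counts followed were genes higher (226), genes lower (89), interferon genes higher (32), tissue-resident genes higher (8) and monocyte-derived genes lower (5), in that order below. A pseudocount of 10 gave 47, 13, 8, 6 and 3, and centring of cells gave 124, 197, 19, 6 and 8. Sets of 12 against 12 cells gave 562, 172, 42, 14 and 5, sets of 25 gave 115, 36, 14, 8 and 2, and sets of 37 gave 38, 12, 9, 1 and 0. A size rule of 1 gave 1149, 785, 57, 16 and 8, a size rule of 3 gave 44, 12, 10, 4 and 2, and calling by the share of pairs at 0.75 or 0.25 gave 40, 17, 11, 3 and 2. Without the lower quartile of genes detected the counts were 392, 169, 32, 13 and 5. Without Ifi204 in the score tissue-resident genes numbered 4 and monocyte-derived genes 2. Without cells with Ccr2 the counts were 394, 139, 34, 1 and 1, and the differences of Ccr2 and Tlr7 changed sign to 0.0821 and -0.0130, the former limited by the choice of cells. For each of these shifts the cause was not tested. Leaving out 1 cell at a time gave 203 to 254, 80 to 114, 27 to 34, 7 to 10 and 5 to 8. The largest of the last, 8, came without the cell of transcriptome 39. Interferon genes higher stayed between 28 and 33 when cells were thinned to 250000 reads, values below 10 CPM were set to 0, the score was standardised or adjusted for genes detected, or any 1 score gene was left out. The filter on the cells between gave 216, 87, 28, 8 and 5. No paired analysis was possible because there is 1 group. The shallow libraries limit values of a few CPM, where 1 read decides presence. Cells of unknown animals limit every count to these cells.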
